A study of Mus musculus with 6 samples.

Results

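The 10 genes described here encode the actin nucleators, the motor and the signalling proteins that place the meiotic spindle off center in the mouse oocyte. They were taken by symbol from a list written by role, and all 10 were among the 17577 genes of the deposited tables. They are the formin *Fmn2*, the spire nucleators *Spire1* and *Spire2*, the vesicle motor *Myo5b* with the small GTPase *Rab11a*, the Arp2/3 complex subunits *Actr2* and *Arpc2*, the small GTPases *Cdc42* and *Rac1*, and the Arp2/3 activator *Wasl*, which encodes N-WASP. Transcripts were measured in 6 Smart-seq2 libraries of germinal vesicle oocytes from 12-week-old C57BL/6J mice, 3 from *Bnc1*tr/tr and 3 from wild-type (WT) mice. *Bnc1*tr/tr mice are homozygous for a frameshift allele that truncates basonuclin 1, a zinc finger protein of germ cells and keratinocytes. The allele is carried in every cell of the body, so the oocytes also grew among mutant somatic cells. Females of both genotypes were given gonadotropin (PMSG) before collection, and each cDNA is described in the study's methods as coming from a single oocyte. The paper describes 3 biological replicates per group and littermates as the basis of its comparisons. Which libraries share a litter or a female was not given in the sources used here. The p-values therefore measure only the spread between these libraries.

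An oocyte divides very unequally, keeping nearly all of its cytoplasm and shedding a small polar body. The germinal vesicle and then the spindle are held and moved by a mesh of unbranched actin filaments in the cytoplasm, which FMN2 and the SPIRE proteins nucleate together. RAB11A-positive vesicles carry these nucleators and are pulled outward along the filaments by the motor MYO5B, which keeps the mesh in motion. Once the chromosomes come near the surface, a RAN signal and the GTPases CDC42 and RAC1 organize the cortex above them, where N-WASP switches on the Arp2/3 complex to build a cap of branched actin. Transcripts stored in the fully grown germinal vesicle oocyte serve for much of this work, because transcription is largely silent by then.

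Levels are given in FPKM (fragments per kilobase of transcript, scaled to the mapped fragments of the library), which corrects for transcript length and is a share of a library. A lower FPKM therefore cannot be told apart from an unchanged amount in an oocyte that held more of other transcripts. Groups were compared with limma on log2(FPKM + 1) over 10560 genes, and a gene was called when its Benjamini-Hochberg adjusted p was under 0.05 and its absolute log2 fold change over 0.5. All fold changes are *Bnc1*tr/tr over WT on that scale, on which changes of low genes are understated.

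The targeted gene was checked first, and values are given in the order of replicates 1, 2 and 3 throughout. Over replicates 1 to 3, *Bnc1* measured 9.04, 6.51 and 5.83 FPKM in the mutant and 13.17, 12.54 and 16.23 in WT, and it was called lower (log2 fold change -0.89, SE 0.20, limma adjusted p = 0.0090). All 12 oocyte markers were detected in all 6 libraries, with a summed level of 14116 to 15222 FPKM in *Bnc1*tr/tr and 16646 to 18335 FPKM in WT. Estimated sequencing depth in M (mega) fragments ran from 13 to 17.2 for the mutant libraries and from 14.9 to 21.4 for WT. Genes at 1 FPKM or more numbered 11035, 10873 and 10682 in *Bnc1*tr/tr and 9747, 9748 and 9518 in WT. The part of this difference in the calls below was not tested. *Bnc1*tr/tr replicates 1 and 2 stood apart by the sum of 7 immune cell markers, 27.1 and 54.5 FPKM against 1.83 in replicate 3 and 1.39 to 3 in WT. *Lyz2* made up most of the sum of replicate 2, at 5.81 and 47.97 FPKM in replicates 1 and 2. *Ptprc*, *Lyz2* and *Cd74* were at 0 in replicate 3 and in all WT libraries. *C1qa* and *Adgre1* were at 0 in WT and at 0.61 and 0.13 FPKM in replicate 3, where *Adgre1* was highest. *Cd68* was at 12.2, 3.64 and 0.96 against 2.94, 1.82 and 1.39, and *Csf1r* at 0.2, 0.02 and 0.13 against 0.06, 0.19 and 0. *Bnc1*tr/tr replicates 1 and 2 are called the libraries with immune transcripts below. Summed granulosa markers (11 listed) were 43.3 to 60.6 FPKM in *Bnc1*tr/tr and 22.9 to 39.8 in WT. Most of this was *Cyp19a1*, at 27.49, 44.41 and 33.46 against 23.45, 28.98 and 17.41. Single markers differed in direction. *Fshr* was at 4.54 to 5.83 against 0 to 0.74, and *Inha* at 0.18, 1.81 and 0.09 against 6.78, 3.45 and 0.04. *Foxl2* was at or near 0 in both genotypes. Summed theca and stroma markers (7 listed) were 11.4 to 14.6 against 2.80 to 3.90. Summed endothelial and blood markers (6 listed) were 5.38 to 14.6 against 10.1 to 11.7. The part of other cells in the results below was not tested. Fold changes without the 2 libraries are given beside the calls. That fit holds 1 mutant library, assumed to vary like WT, and over all genes it called fewer. A call kept or lost in it cannot show the part of immune transcripts, so only effect sizes are given. *Bnc1* was at -1.13 in that fit. The median of all genes tested was 0.15 on the log2 scale and 75.8% of all calls were higher. With upper-quartile, median-ratio and quantile scaling that median was 0.02, -0.02 and -0.09, and the share of higher calls was 63.5%, 59.3% and 48.0%.

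Of the 10 actin genes, all of which passed the filter, 1 fell in *Bnc1*tr/tr oocytes, 0 rose and 9 were not called. The gene that fell was *Myo5b*. Among all genes tested, 31.8% were called, 7.68% lower and 24.1% higher, so the count of lower members is near the background and none of the 10 was among the many genes called higher. With limma, 4 of the 10 had an unadjusted p under 0.05, *Myo5b*, *Actr2* and *Rac1* in the lower direction and *Spire2* in the higher. The members' median log2 fold change was 0.01 beside 0.15 for all genes tested, and 7 of the 10 lay below that median of all genes. Over the 6867 genes averaging 5 FPKM or more, which include all members but *Spire2*, the median was 0.07. In that fit 1413 genes were called higher and 633 lower. Library ranges of the genotypes did not overlap for 5 genes, 2 with *Bnc1*tr/tr above and 3 below, against 46.8% of all genes tested, 32.7% above and 14.1% below. Together the 10 transcripts took 0.140% to 0.153% of the FPKM of a library.

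**Figure D1:**
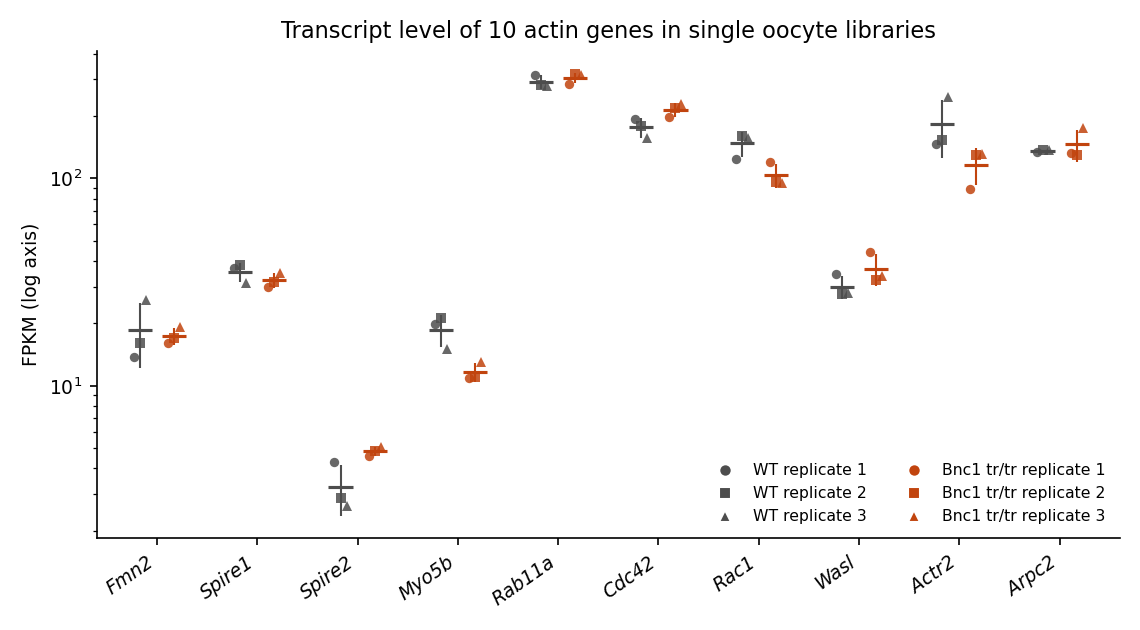
FPKM on a log axis (vertical) of the 10 actin genes (horizontal) in each library, WT in grey and Bnc1tr/tr in orange, with the marker shape giving the replicate, bars the mean and lines the SD of 3 libraries. Rab11a stood highest and Spire2 lowest in both genotypes, and for Myo5b, Actr2 and Rac1 all 3 Bnc1tr/tr points lie below the WT points.

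In WT oocytes the order of levels in FPKM ran from *Rab11a* (292) through *Actr2* (183), *Cdc42* (176), *Rac1* (147) and *Arpc2* (136) to *Spire1* (35.6), *Wasl* (30.1), *Myo5b* (18.7), *Fmn2* (18.6) and *Spire2* (3.26). *Rab11a*, the Arp2/3 subunits and the GTPases thus stood above the mesh nucleators, the motor and *Wasl*. Neighbours from *Actr2* to *Arpc2* overlapped in their library ranges, as did *Spire1* with *Wasl* and *Myo5b* with *Fmn2*, so their order is not resolved. *Rab11a* stood above 97.4% of the listed genes in WT, *Fmn2* above 78.9% and *Spire2* above 58.2%. In *Bnc1*tr/tr oocytes *Rab11a* (306) again came first and *Spire2* (4.83) last, but *Cdc42* (215) now stood above *Arpc2* (146), *Actr2* (117) and *Rac1* (104) with no overlap. *Myo5b* (11.6) stood below *Fmn2* (17.4) with no overlap in the mutant, whereas both overlapped in WT. These orders are descriptions of 3 libraries each.

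Basonuclin 1 is a DNA-binding protein, so the sequence upstream of 2 members is shown for orientation. *Spire2* and *Actr2* were chosen because, of the 7 members with a window in the RefSeq promoter table of GRCm38.p6, they had the highest and the lowest log2 fold change. Each line gives the 250 bases before the annotated gene start on the gene's own strand, chr8:123332463-123332712 (plus strand) for *Spire2* and chr11:20112952-20113201 (minus strand) for *Actr2*. Capitals mark the GC box GGGCGG or its complement CCGCCC and the CCAAT box or its complement ATTGG.
Spire2: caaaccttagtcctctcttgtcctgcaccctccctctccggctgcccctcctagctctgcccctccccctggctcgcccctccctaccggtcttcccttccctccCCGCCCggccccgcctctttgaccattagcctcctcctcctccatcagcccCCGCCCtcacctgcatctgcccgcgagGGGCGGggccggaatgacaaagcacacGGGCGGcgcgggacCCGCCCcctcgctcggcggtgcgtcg
Actr2: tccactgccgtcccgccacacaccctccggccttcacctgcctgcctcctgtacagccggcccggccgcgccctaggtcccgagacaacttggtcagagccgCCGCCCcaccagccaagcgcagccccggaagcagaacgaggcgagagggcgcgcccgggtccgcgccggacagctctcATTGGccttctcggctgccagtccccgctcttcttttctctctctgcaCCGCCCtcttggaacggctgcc
The *Spire2* window held 5 GC boxes and 0 CCAAT boxes, and the *Actr2* window held 2 GC boxes and 1 CCAAT box, with 0 matches of the TATA box TATAAA on either strand in both. GC content was 71.2% and 70%, against a median of 52.4% over 32851 windows of the same length. At least 1 GC box was found in 32.7% of those windows, a CCAAT box in 33.8% and a TATA box in 12.4%. Each of the 7 windows of members held a GC box. Both sequences are thus GC-rich beside the 32851 windows, which were not limited to genes expressed in these oocytes. The matches are letters in a window, not measured binding sites.

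The nucleators of the cytoplasmic mesh were described next. *Fmn2*, the formin whose loss in mice leaves the spindle central and the eggs aneuploid, measured 16.02, 16.91 and 19.14 FPKM in *Bnc1*tr/tr and 13.76, 16.07 and 25.84 in WT. The mutant libraries all lay within the WT range, whose top was set by WT replicate 3. The means were 17.4 ± 1.61 (SD, n = 3) and 18.6 ± 6.41 (SD, n = 3), and the log2 fold change was -0.05 (SE 0.23, limma adjusted p = 0.90). Its 95% interval ran from -0.58 to 0.48, so changes of up to about the calling threshold in either direction were not excluded. The sign was positive (0.21) without WT replicate 3.

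*Spire1* measured 29.99, 31.56 and 35.11 FPKM in *Bnc1*tr/tr and 37.15, 38.24 and 31.26 in WT. It is the more abundant of the SPIRE nucleators in these oocytes, and its groups overlapped because WT replicate 3 was lower than the other WT libraries. Means of 32.2 ± 2.62 and 35.6 ± 3.76 FPKM (SD, n = 3 each) gave a log2 fold change of -0.14 (95% interval -0.51 to 0.24, limma adjusted p = 0.57).

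*Spire2*, the paralog that acts redundantly with *Spire1* in the mouse oocyte, measured 4.57, 4.87 and 5.06 FPKM in *Bnc1*tr/tr and 4.30, 2.87 and 2.62 in WT. Each mutant library was above each WT library, WT replicate 1 by a small margin. The log2 fold change was 0.47 (SE 0.19, 95% interval 0.05 to 0.90), the highest value among the 10 genes, and it missed the call (limma adjusted p = 0.088). It was called higher without WT replicate 1 (0.64, limma adjusted p = 0.033), but was 0.068 with quantile normalization (limma adjusted p = 0.79). In that setting *Spire2* was below *Cdc42* (0.34), *Wasl* (0.13) and *Arpc2* (0.094). As the lowest member it rested on few fragments, an estimated 98 to 183 per library, with a counting error of up to 10.1%.

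A factor that scales a whole library cancels in the ratio of *Spire2* to *Spire1*, which was 0.152, 0.154 and 0.144 in *Bnc1*tr/tr and 0.116, 0.0751 and 0.0838 in WT. The ranges did not overlap, and the log2 difference of 0.74 had an exact two-sided permutation p of 0.10, the smallest that 3 against 3 libraries allow (0.125 adjusted over the 5 ratios computed). Quantile normalization, which does not cancel, lowered it to 0.38 (exact two-sided permutation p = 0.20). The ratio of *Fmn2* to both *Spire* transcripts together was 0.464, 0.464 and 0.476 in *Bnc1*tr/tr and 0.332, 0.391 and 0.763 in WT. Mutant libraries held nearly 1 value while WT libraries were spread on both sides of it, and the log2 difference was 0.02 (exact two-sided permutation p = 1).

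**Figure D2:**
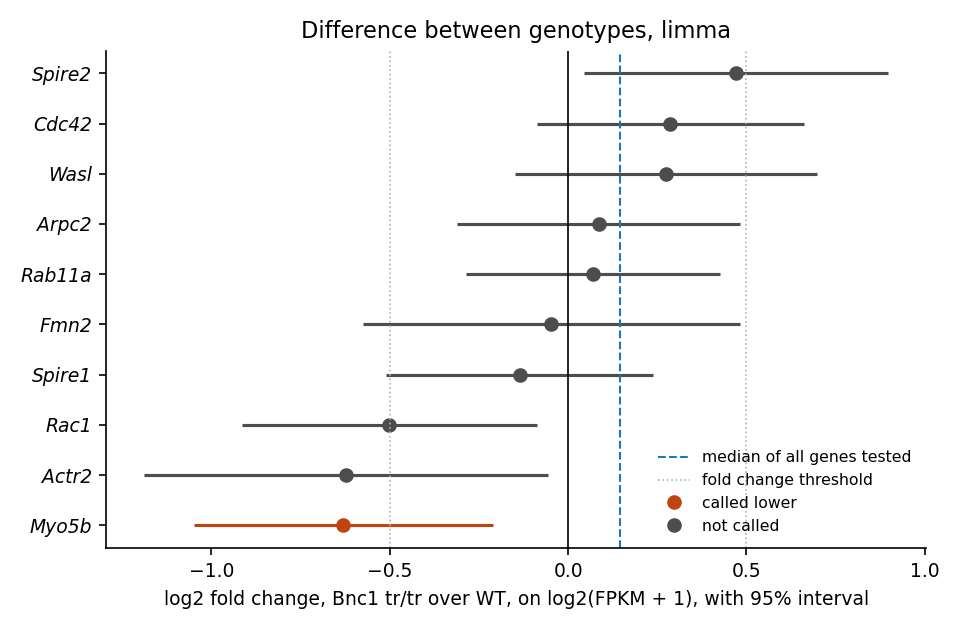
Log2 fold change of each of the 10 actin genes, Bnc1tr/tr over WT on log2(FPKM + 1) (horizontal), with its 95% interval from limma; the dashed line is the median of all genes tested (0.15) and dotted lines are the fold change threshold of 0.5. Myo5b is called lower, and the intervals of Actr2, Rac1 and Spire2 also leave out 0.

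The vesicle pathway showed the one call among the members. *Myo5b*, the class V myosin that moves the actin-nucleating vesicles, measured 10.90, 10.99 and 13 FPKM in *Bnc1*tr/tr and 19.88, 21.19 and 14.98 in WT. The mutant libraries lay below all WT libraries, with WT replicate 3 nearest to them. The means were 11.6 ± 1.19 and 18.7 ± 3.27 FPKM (SD, n = 3 each), a ratio of 0.622. The log2 fold change was -0.63 (SE 0.18, 95% interval -1.05 to -0.21, limma adjusted p = 0.029), or -0.78 relative to the median of all genes.

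*Myo5b* kept its direction in all 16 alternative fits, from -0.89 to -0.48, and with upper-quartile, median-ratio and quantile scaling it was still called lower (limma adjusted p = 0.0096, 0.0078 and 0.0050). The call depended on single libraries. It was lost without *Bnc1*tr/tr replicate 1 (-0.59, limma adjusted p = 0.089), *Bnc1*tr/tr replicate 2 (-0.59, 0.087), WT replicate 1 (-0.58, 0.079) or WT replicate 2 (-0.54, 0.12). Without both libraries with immune transcripts the log2 fold change of *Myo5b* was -0.48. *Myo5b* shares almost none of its sequence words with other genes (0.0716% of 31-base words).

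*Rab11a*, the GTPase of the same vesicles, was the most abundant member, with 286.78, 317.14 and 314.14 FPKM in *Bnc1*tr/tr and 316.99, 280.76 and 277.61 in WT. The groups overlapped fully, at 306 ± 16.7 and 292 ± 21.9 FPKM (SD, n = 3 each). Its log2 fold change of 0.07 (95% interval -0.29 to 0.42, limma adjusted p = 0.77) changed sign with upper-quartile (-0.07) and median-ratio scaling (-0.12). The interval lies within the calling threshold on both sides.

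The ratio of *Myo5b* to *Rab11a* was 0.0380, 0.0347 and 0.0414 in *Bnc1*tr/tr and 0.0627, 0.0755 and 0.0540 in WT. Motor transcript per GTPase transcript was thus lower in every mutant library. The log2 difference was -0.74, with the smallest exact two-sided permutation p that the design allows (p = 0.10).

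The closest relatives of these genes did not move together. *Rab11b*, a paralog of *Rab11a*, fell from 9.87, 11.54 and 5.36 FPKM in WT to 1.2, 2.64 and 2.03 in *Bnc1*tr/tr (log2 fold change -1.72, SE 0.29, limma adjusted p = 0.0020). *Rab25*, the epithelial member of the RAB11 family, rose from 7.03, 10.35 and 6.52 to 24.24, 22.02 and 12.59 FPKM (1.18, SE 0.27, limma adjusted p = 0.01). The RAB11 GTPases therefore differed in opposite directions while the far more abundant *Rab11a* was not called. Without both libraries with immune transcripts the log2 fold change was -1.65 for *Rab11b* and 0.62 for *Rab25*. *Rab11b* shares 15.4% of its words, mostly with a pseudogene. The myosin paralog *Myo5a* was at 5.41 ± 0.730 and 5.01 ± 0.163 FPKM (SD, n = 3 each) with a log2 fold change of 0.09 (limma adjusted p = 0.73), and its sign turned with the 3 other scalings. *Myo5c* was too low to be tested. The list of class V myosins, RAB11 GTPases and RAB11 effectors held 9 genes, of which 5 were tested. Of these, 2 rose and 1 fell, beside 24.1% and 7.68% of all genes tested. The second that rose was the effector *Rab11fip1* (1.23, limma adjusted p = 0.0062), named after its values were seen.

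The branched network came from the Arp2/3 complex and its activators. *Actr2*, which encodes the actin-related subunit ARP2, measured 89.23, 129.09 and 131.70 FPKM in *Bnc1*tr/tr and 146.46, 153.80 and 247.99 in WT. Every mutant library was below every WT library, and the groups were stretched by a low mutant replicate 1 and a high WT replicate 3. Means of 117 ± 23.8 and 183 ± 56.6 FPKM (SD, n = 3 each) gave a log2 fold change of -0.62 (SE 0.25, 95% interval -1.19 to -0.05). This was about the size of the *Myo5b* difference with a larger error, and it was not called (limma adjusted p = 0.090). The value was -0.44 without *Bnc1*tr/tr replicate 1 and -0.38 without WT replicate 3.

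*Arpc2*, a core subunit of the same complex, measured 132.16, 130.18 and 175.35 FPKM in *Bnc1*tr/tr and 134.14, 137.64 and 136.45 in WT. Replicate 3 of *Bnc1*tr/tr alone stood above the WT range. The log2 fold change was 0.09 (95% interval -0.31 to 0.48, limma adjusted p = 0.75), and its sign turned without that library (-0.05) and with upper-quartile (-0.05) and median-ratio scaling (-0.10).

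The ratio of *Actr2* to *Arpc2* was 0.675, 0.992 and 0.751 in *Bnc1*tr/tr and 1.09, 1.12 and 1.82 in WT. WT libraries held more *Actr2* than *Arpc2* per length, and mutant libraries held less. The log2 difference was -0.71 (exact two-sided permutation p = 0.10, the smallest possible).

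Over the whole complex, 10 subunit and isoform genes were tested with limma. Of these, 1 fell and 0 rose (0 at an unadjusted p under 0.05), beside 7.68% and 24.1% of all genes tested. The gene that fell was *Arpc3*, a small subunit, from 77.73, 63.60 and 66.69 FPKM in WT to 34.11, 32.39 and 47.78 in *Bnc1*tr/tr (log2 fold change -0.86, SE 0.20, limma adjusted p = 0.0098). Its groups were well apart, and the call held without each library in turn. Without both libraries with immune transcripts the log2 fold change of *Arpc3* was -0.52. The most abundant subunit, *Arpc5l*, was at 451 ± 47.6 and 525 ± 21.5 FPKM (SD, n = 3 each) and was not called (-0.22, limma adjusted p = 0.33). *Arpc1b* had the largest positive value (0.90, limma adjusted p = 0.15), with 0.33 without WT replicate 3 and with 30.5% of its words shared with other genes. *Actr3*, which encodes ARP3, was at -0.05 with 34.2% of its words shared, mostly with a pseudogene. The other subunits, *Actr3b*, *Arpc1a*, *Arpc4* and *Arpc5*, lay between -0.02 and 0.25 and were not called.

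**Figure D3:**
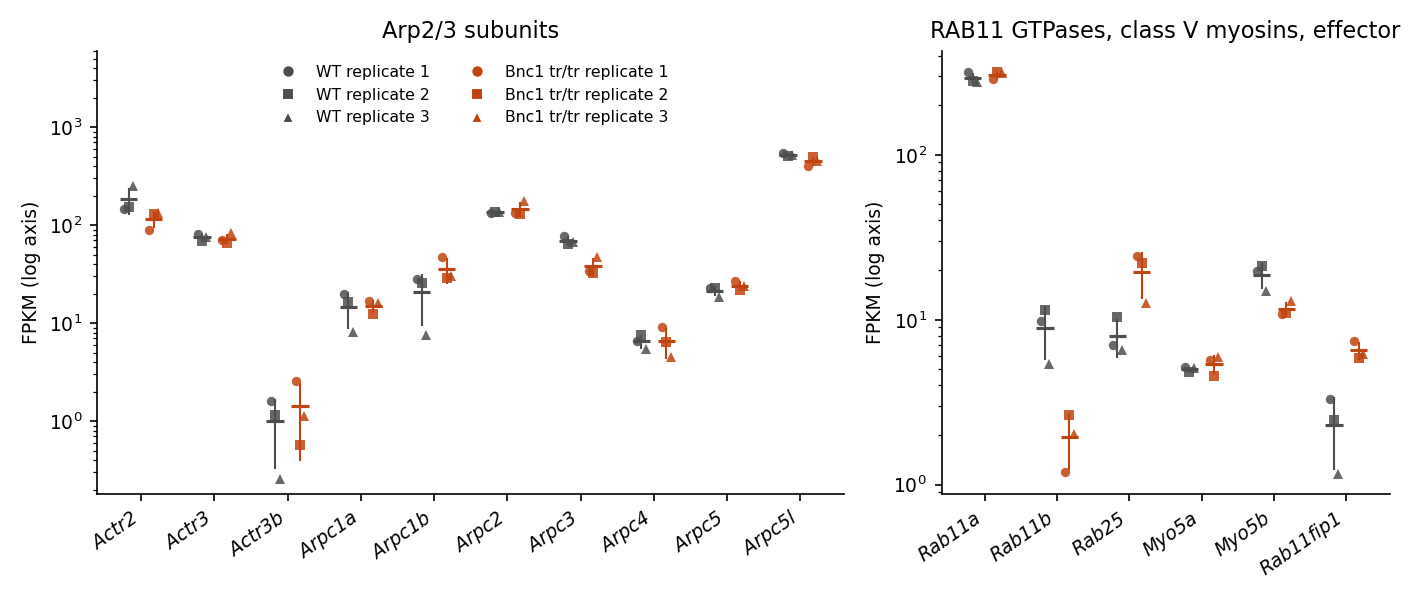
FPKM on a log axis (vertical) in each library for the 10 Arp2/3 subunit genes (left panel) and for RAB11 GTPases, class V myosins and a RAB11 effector (right panel), WT in grey and Bnc1tr/tr in orange, with means and SD of 3 libraries. Arpc3 and Rab11b are lower and Rab25 and Rab11fip1 higher in every Bnc1tr/tr library, while the points of Arpc2, Arpc5 and Rab11a overlap.

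*Wasl*, whose product N-WASP activates Arp2/3 downstream of CDC42, measured 44.10, 32.27 and 33.80 FPKM in *Bnc1*tr/tr and 34.53, 27.59 and 28.04 in WT. Replicate 1 was the highest library of both groups, and the groups overlapped. Means of 36.7 ± 6.43 and 30.1 ± 3.88 FPKM (SD, n = 3 each) gave a log2 fold change of 0.27 (95% interval -0.15 to 0.70, limma adjusted p = 0.30). *Was*, the blood cell paralog of *Wasl*, was at 0 in WT and at 0.24, 0.06 and 0.19 FPKM in *Bnc1*tr/tr, too low to be tested.

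The other activators of Arp2/3, the WAVE, WASH and WHAMM proteins with their partners, formed the list with the largest median. It was 0.58 over 17 tested genes. Of these, 8 rose and 0 fell with limma (1 lower at an unadjusted p under 0.05, *Nckap1l*), beside 24.1% and 7.68% of all genes tested. Among those that rose, *Wasf1*, *Wasf3*, *Washc1* and *Abi2* averaged only 4.2, 3.2, 2.7 and 1.1 FPKM. Over all genes averaging 5 FPKM or more the median was 0.07. *Whamm*, which links Arp2/3 to membranes and microtubules, rose from 7.68, 8.95 and 11.10 to 25.06, 19.75 and 20.01 FPKM (log2 fold change 1.15, SE 0.19, limma adjusted p = 0.0019). *Cyfip2*, a subunit of the WAVE complex, rose from 3.04 ± 0.200 to 7.97 ± 2.25 FPKM (SD, n = 3 each; 1.12, limma adjusted p = 0.0041). Without both libraries with immune transcripts the log2 fold change was 1.05 for *Whamm* and 0.68 for *Cyfip2*. The difference between *Wasl* and this list was not tested.

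The GTPases of the cortical cap differed in sign. *Cdc42*, which recruits N-WASP to the cortex over the chromosomes, measured 196.77, 219.02 and 228.24 FPKM in *Bnc1*tr/tr and 192.60, 179.84 and 155.92 in WT. Each mutant library was above each WT library, by a small margin between *Bnc1*tr/tr replicate 1 and WT replicate 1. Means of 215 ± 16.2 and 176 ± 18.6 FPKM (SD, n = 3 each) gave a log2 fold change of 0.29 (95% interval -0.09 to 0.66), which was not called (limma adjusted p = 0.22).

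*Rac1*, the GTPase that acts with CDC42 in polarizing the oocyte and holding the spindle at the cortex, measured 119.86, 96.04 and 95.41 FPKM in *Bnc1*tr/tr and 124.46, 160.87 and 157.07 in WT. Both replicates 1 lay close together, and the other libraries were well apart. Means of 104 ± 13.9 and 147 ± 20.01 FPKM (SD, n = 3 each) gave a log2 fold change of -0.50 (SE 0.18, 95% interval -0.92 to -0.09), just short of the call (limma adjusted p = 0.065). It was called lower with upper-quartile (-0.64) and median-ratio scaling (-0.69), with trended and robust variances (-0.50) and without WT replicate 1 (-0.62).

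The *Rac1* values are uncertain for another reason. Transcripts annotated to the neighbouring gene *Daglb* hold 50.7% of the 31-base words of *Rac1*, so that reads could be split between them. *Daglb* measured 39.53, 40.44 and 41.07 FPKM in *Bnc1*tr/tr and 44.06, 38.15 and 41.33 in WT, with a log2 fold change of -0.03 (limma adjusted p = 0.92). The *Daglb* groups overlapped and the gene was not called.

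The ratio of *Rac1* to *Cdc42* was 0.609, 0.438 and 0.418 in *Bnc1*tr/tr and 0.646, 0.895 and 1.01 in WT. Levels were near equal in WT replicates 2 and 3, while *Cdc42* was in excess in all mutant libraries and in WT replicate 1. The ratio of WT replicate 1 was close to that of *Bnc1*tr/tr replicate 1. The words that *Rac1* shares with *Daglb* make this ratio uncertain too. The log2 difference of -0.79 was the largest of the 5 with the values as deposited, while *Myo5b* over *Rab11a* was larger with quantile normalization (-1.01 against -0.85) and without WT replicate 3 (-0.86 against -0.66). The p of *Rac1* over *Cdc42* was 0.10 in the exact two-sided permutation test, the limit of the design. Of the 5 ratios, 4 did not overlap between genotypes, and none can pass 0.05 in this design. Among all genes tested, 46.8% did not overlap as single genes. Each of these 4 ratios holds a member whose own libraries did not overlap, so the count largely restates the results of single members.

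**Figure D4:**
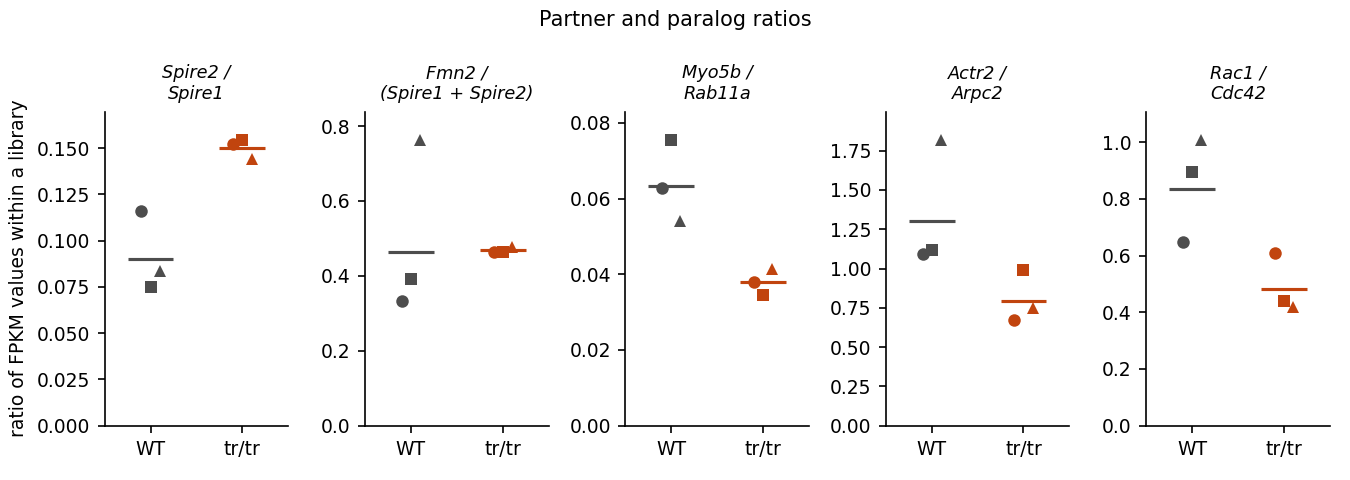
Ratio of FPKM values within a library (vertical, starting at 0) for 5 pairs of partners or paralogs, WT in grey and Bnc1tr/tr (tr/tr) in orange, with circles, squares and triangles for replicates 1, 2 and 3 and lines for the geometric means. Only Fmn2 over both Spire transcripts overlaps between genotypes; Spire2 over Spire1 is higher and the other 3 ratios are lower in Bnc1tr/tr.

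Partners of the cortical GTPases were also measured. *Prkci*, the atypical protein kinase C of the PAR polarity complex that binds active CDC42, rose from 6.04, 4.71 and 3.56 to 13.01, 17.21 and 13.07 FPKM (log2 fold change 1.43, SE 0.21, limma adjusted p = 0.0010). *Cdc42se1*, a small effector of CDC42, rose from 8.05 ± 1.34 to 21.3 ± 2.47 FPKM (SD, n = 3 each; 1.31, limma adjusted p = 0.00072). *Ran*, the source of the chromatin signal that places the actin cap, fell from 110.46, 131.59 and 96.26 to 57.94, 45.57 and 48.29 FPKM (-1.14, SE 0.18, limma adjusted p = 0.0018), with 18.8% of its words shared, mostly with a pseudogene. Without both libraries with immune transcripts the log2 fold change was 1.29 for *Cdc42se1*, 1.31 for *Prkci* and -1.20 for *Ran*. *Rac3* was not called (-0.03, limma adjusted p = 0.95). *Rac2*, the paralog of blood cells, was at 1.13, 0.88 and 0.12 FPKM in *Bnc1*tr/tr and at 0.02, 0 and 0 in WT, too low to be tested, and was highest in the libraries with immune transcripts.

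Of the other formins, 7 were tested, of which 3 rose and 1 fell, with a median of 0.30. *Daam1*, the most abundant of those that rose, measured 35.23, 34.21 and 39.59 FPKM in *Bnc1*tr/tr against 26.40, 24.62 and 19.23 in WT (log2 fold change 0.62, limma adjusted p = 0.026), and was not called with the 3 other scalings or without any single library except WT replicate 1. *Diaph1*, a diaphanous formin, rose from 7.28 ± 1.56 to 13.8 ± 2.22 FPKM (SD, n = 3 each; 0.85, limma adjusted p = 0.012). *Fmnl3* fell from 23.98, 20.19 and 23.48 to 12.12, 12.98 and 12.68 FPKM (-0.79, SE 0.16, limma adjusted p = 0.0052). Without both libraries with immune transcripts the log2 fold change was 0.75 for *Daam1*, 0.83 for *Diaph1* and -0.78 for *Fmnl3*. *Fmn1*, the closest relative of *Fmn2*, was low, at 1.99 ± 0.190 and 1.43 ± 0.0557 FPKM (SD, n = 3 each), and not called (0.30, limma adjusted p = 0.17). Over all 7 lists of 131 wider actin genes, 99 were tested, of which 29 rose and 6 fell, with a median of 0.17, near the 24.1%, 7.68% and 0.15 of all genes tested. Without both libraries with immune transcripts fewer of the wider genes were called in either direction, as was the case over all genes.

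The profile of 2 members over the 6 libraries was set beside those of 5282 genes averaging 10 FPKM or more, as a description. *Fmn2* was most like *Mphosph6* (Pearson r = 0.998), *Fam8a1* (0.992) and *Snrpd1* (0.991), which all shared its high value in WT replicate 3. *Mphosph6*, for example, measured 2149, 2266 and 2573 FPKM in *Bnc1*tr/tr and 1904, 2198 and 3238 in WT. *Myo5b* was most like *Tuba3b* (0.993), *Nipsnap1* (0.992) and *Rufy1* (0.990), which shared the lower mutant values and the low WT replicate 3. All values of r rest on the same 6 libraries and are the highest of the genes compared.

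**Figure D5:**
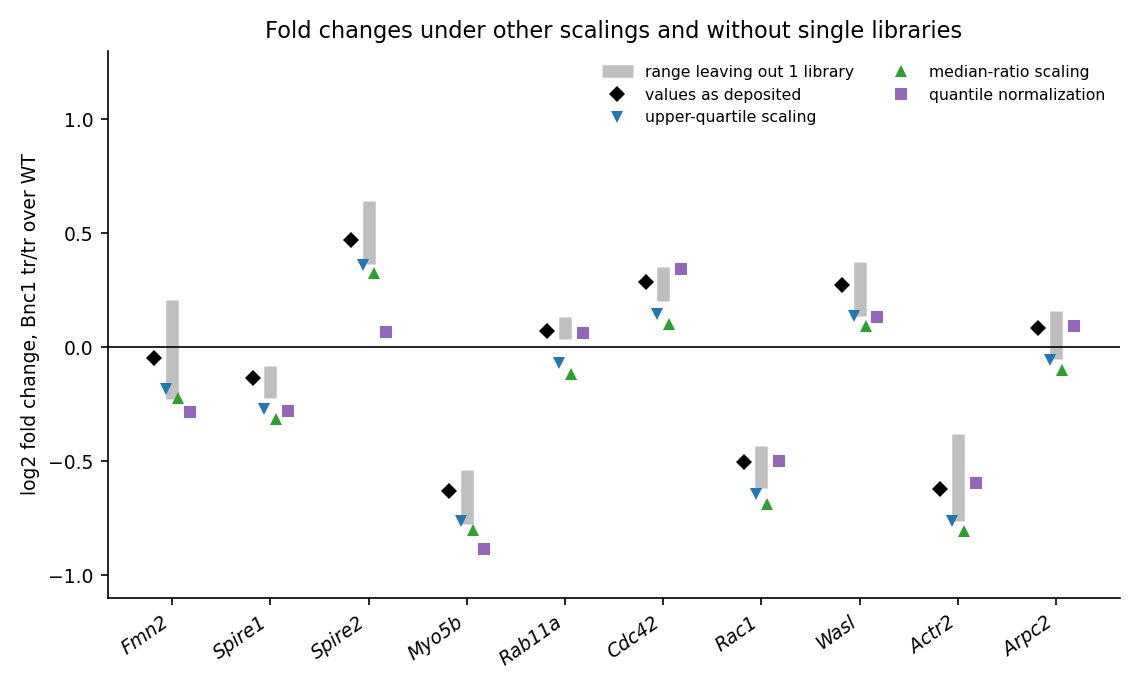
Log2 fold change, Bnc1tr/tr over WT (vertical), of the 10 actin genes (horizontal) with the values as deposited (black) and with upper-quartile, median-ratio and quantile scaling (colored), and its range when each library is left out in turn (grey bars). Myo5b, Actr2, Rac1 and Spire1 stay below 0 and Spire2, Cdc42 and Wasl above 0 in all of these, while Fmn2, Rab11a and Arpc2 fall on both sides.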

How the data were processed

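The authors deposited 1 FPKM table per library, rounded to 2 decimals, with NCBI Gene IDs and symbols. The submitters' processing notes name HISAT2 2.0.4, Bowtie2 2.2.5, RSEM 1.2.12 and GRCm38.p6. The annotation and any gene filter are not given in the sources used here. RSEM divides reads shared by several genes between them, and cDNA was amplified without molecular identifiers.

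Symbols turned into dates (25) were repaired through the Gene ID. Genotypes were compared for genes averaging 1 FPKM or more, on log2(FPKM + 1), by limma 3.58.1 (R 4.3.3), a step that was tested on simulated data. The fold and adjusted p thresholds follow the study. Read counts were not used here, and depth was inferred from the spacing of low values of genes with 1 transcript of 450 to 1600 bases. Fragment numbers and counting errors derive from this estimate. Sequence words of 31 bases were counted in GENCODE M21 transcripts. The members and lists were chosen with earlier results of these data known. Named genes were the members, all Arp2/3 subunits, close relatives, up to 2 largest increases and 2 largest decreases per list among called genes averaging 5 FPKM or more, and the 3 genes most like *Fmn2* and *Myo5b*. The counts of 1 list and 1 named relative are not reported here. Alternatives were another pseudocount, other filters, scalings, fold thresholds and variance models, a replicate block, and leaving out libraries; leaving out 2 mutant libraries together was chosen after seeing the data. Figures were drawn with matplotlib 3.10.9.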

Additional observations from a re-analysis of the deposited data

How the results depend on the processing

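The number of members called lower (1) was 2 with upper-quartile and with median-ratio scaling and with trended and robust variances (*Myo5b* and *Rac1*). It was 0 at an absolute log2 fold change over 1. Without single libraries it ranged from 0 to 1, and the number called higher (0) from 0 to 1, the latter being *Spire2* without WT replicate 1. Wider actin genes called higher (29) numbered 16 at a minimum mean of 5 FPKM, 16 with quantile normalization and 12 at an absolute log2 fold change over 1. They numbered 18 to 25 without single libraries, lowest without *Bnc1*tr/tr replicate 1 or WT replicate 2. Wider genes called lower (6) numbered 10, 11 and 12 with upper-quartile, median-ratio and quantile scaling. They numbered 3 at an absolute log2 fold change over 1 and 5 to 7 without single libraries. Scaling moves the median of all genes and with it the counts in each direction. Counts without the 2 mutant libraries together are not given, because 1 mutant library remains in that fit. The cause of the other shifts was not tested.

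Same-numbered libraries did not all deviate together (correlations 0.28, -0.03 and 0.12 for replicates 1, 2 and 3, where replicate 2 correlated best with another number). With 3 libraries per group these correlations cannot decide whether the numbers pair the samples. The paper does not tie its comparison of littermates to these numbers. With the replicate block, 2 members were called lower, *Myo5b* (limma adjusted p = 0.038) and *Actr2* (0.035), *Arpc1b* was called higher (0.90, limma adjusted p = 0.048), and 2781 genes rose and 952 fell among all tested, against 2547 and 811 without it.

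Signs that turned belonged to values that were not called. The log2 ratio of *Fmn2* to both *Spire* genes (0.017) was -0.045 with quantile normalization and -0.22 to 0.38 without single libraries, negative without WT replicate 1 or 2. The log2 fold change of *Fmn2* was 0.091 without the 2 mutant libraries, where *Actr3* was 0.13. With upper-quartile and median-ratio scaling, *Rab11a* was -0.071 and -0.12, *Arpc2* -0.054 and -0.099, *Arpc1a* -0.023 and -0.065, and *Myo5a* -0.034 and -0.071. *Arpc5* was -0.0056 with median-ratio scaling. With quantile normalization, *Actr3b* was -0.15, *Arpc1a* -0.15, *Arpc5* -0.019, *Fmn1* -0.15 and *Myo5a* -0.28. Without single libraries the log2 fold change ran from -0.23 to 0.21 for *Fmn2*, -0.053 to 0.16 for *Arpc2*, -0.14 to 0.023 for *Actr3*, -0.052 to 0.52 for *Actr3b*, -0.24 to 0.35 for *Arpc1a*, -0.24 to 0.19 for *Arpc4*, -0.27 to 0.26 for *Rac3* and -0.079 to 0.022 for *Daglb*. Of the other values of single genes and ratios, none changed sign.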

Other observations

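Of 28 tested genes of actin supply and filament turnover, 5 were called higher and 2 lower, beside 24.1% and 7.68% of all genes tested. Their median log2 fold change was 0.04, beside 0.15 for all genes tested. *Pfn1*, the profilin that feeds actin monomers to formins, fell from 514.93, 588.82 and 533.42 FPKM in WT to 381.32, 386.24 and 345.51 in *Bnc1*tr/tr (log2 fold change -0.55, SE 0.16, limma adjusted p = 0.025), a call that was lost without any 1 of 4 libraries. *Capzb*, the beta subunit of the capping protein that closes filament ends, fell from 39.23, 38.69 and 31.31 to 17.41, 19.41 and 14.96 FPKM (-1.03, SE 0.18, limma adjusted p = 0.0024). *Tpm2*, a tropomyosin that stabilizes filaments, rose from 1.23, 1.81 and 2.13 to 11.26, 12.45 and 14.21 FPKM (2.33, SE 0.19, limma adjusted p = 3.4e-05). *Tmsb4x*, a thymosin that sequesters monomers and is abundant in blood cells, was at 0.45, 0.51 and 0 FPKM in WT and at 61.77, 80 and 13.76 in *Bnc1*tr/tr (5.02, SE 0.55, limma adjusted p = 0.00019). It was highest in the mutant libraries with immune transcripts, whose part in it was not tested, and its log2 fold change was 3.51 without them.

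Genes of cortical tension and cytokinesis numbered 13 tested, of which 4 rose and 0 fell with limma (1 lower at an unadjusted p under 0.05, *Myl6*). Among all genes tested, 24.1% rose and 7.68% fell. The median of the list was 0.03, beside 0.15 for all genes tested. *Mos*, the kinase that feeds the MAP kinase cascade of the maturing oocyte and softens its cortex, measured 930, 670.74 and 609.17 FPKM in *Bnc1*tr/tr and 495.84, 386.91 and 301.03 in WT (log2 fold change 0.90, SE 0.24, limma adjusted p = 0.019), a call lost without *Bnc1*tr/tr replicate 1 (0.72) or WT replicate 2 (0.90). *Myl12b*, a regulatory light chain of myosin II, rose from 34.03, 30.77 and 25.58 to 68.18, 54.70 and 57.93 FPKM (0.98, SE 0.18, limma adjusted p = 0.0033), with 21.3% of its words shared, mostly with *Myl12a*. *Rdx*, which encodes radixin and was the most abundant gene of the list at 1608 ± 231 and 1786 ± 23.2 FPKM (SD, n = 3 each), was not called (-0.16, limma adjusted p = 0.50). Without the 2 mutant libraries with immune transcripts the log2 fold change was -0.66 for *Pfn1*, 0.65 for *Mos* and 0.93 for *Myl12b*. In the same fit it was -1.22 for *Capzb* and 2.50 for *Tpm2*. *Rdx* was named after its values were seen.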
